A study of Homo sapiens with 4 samples.

Results

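The genes of the inducible HSP70 chaperone and its co-chaperones were followed in HeyA8-MDR cells after miR-204-5p had been blocked. HeyA8-MDR is a paclitaxel-resistant ovarian cancer cell line of human origin. The 10 symbols were HSPA1A, HSPA1B, HSPA1L, HSPA8, HSPH1, DNAJB1, DNAJB4, HSF1, HSPB1 and BAG3, and they were chosen from these same 4 arrays, with the differences between the groups already known. The log2 differences below therefore describe the genes and do not support the choice. Of the 10 genes, 8 had a feature under their symbol, among 17687 distinct gene symbols and 21448 features in all. HSPA1B and HSPA8 had no feature under their symbols and were not analysed here. Each of the 8 had 1 feature, so the rule of taking the brightest feature per symbol left nothing out.

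The miR204 group held 2 arrays of cells given the miR-204-5p inhibitor, an antisense oligonucleotide that binds and blocks the mature microRNA. The control group held 2 arrays of cells given a control inhibitor. Both groups were grown with 15% serum and 300 ng/ml paclitaxel, a taxane, so the control cells were exposed to it too. No array came from cells without paclitaxel, and its effect was not tested. Array titles, read with the study's design note, set the groups, because a treatment field repeats the miR-204-5p inhibitor for every array. The labels give no inhibitor dose or time. They also do not state that the arrays of a group came from different cultures, and the array-to-array spread behind each p-value may then be technical. Array medians were 5.59 and 5.61 log2 units in miR204 and 5.65 and 5.68 in control. The SD over features was 2.08 and 2.13 in miR204 and 2.20 and 2.21 in control, so the miR204 values were less spread. Over all features the 2 miR204 arrays had a correlation of 0.986 with each other. That lay below the 0.989 and 0.988 of miR204 array 2 with control arrays 1 and 2. The 2 control arrays had a correlation of 0.995. Carcinoma markers fitted the label in part. KRT8 was at 11.29 and 11.28 in miR204 and 11.30 and 11.45 in control, and KRT7 and KRT18 were also bright. PAX8 was at 8.32 and 8.31 in miR204 and 8.43 and 8.51 in control. The other ovarian markers were dimmer: WT1 had 6.11 and 6.30 in miR204 and 6.81 and 6.71 in control. MUC16 had 4.35 and 4.42 in miR204 and 4.68 and 4.86 in control. The epithelial marker KRT19 was also dimmer than the other keratins, with 4.96 and 5.62 in miR204 and 5.33 and 5.55 in control. The epithelial markers EPCAM (3.36 and 2.93 in miR204, 3.19 and 3.87 in control) and CDH1 (3.50 and 2.81 in miR204, 2.72 and 2.96 in control) lay in the dimmest 25% of features, up to 3.965. The mean of 3 mesenchymal markers (VIM, CDH2 and FN1) was high, at 10.40 and 10.45 in miR204 and 10.45 and 10.52 in control. Of the other cell types, the mean of 3 measured leukocyte markers of 4 listed was 4.50 and 4.32 in miR204 and 4.17 and 4.17 in control. The mean of 5 endothelial markers was 4.70 and 4.71 in miR204 and 4.85 and 4.81 in control. That mean joined unlike genes: CDH5 had 7.01 and 7.03 in miR204 and 8.13 and 8.06 in control, a log2 difference of -1.075 (limma adjusted p = 0.101), and PECAM1 had 4.53 and 4.0 in miR204 and 3.78 and 3.81 in control. KDR and TEK lay in the dimmest 25% on every array. The mean of 5 fibroblast markers was 5.20 and 5.43 in miR204 and 5.46 and 5.37 in control. The part of these markers in the results was not tested.

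HSP70 proteins bind exposed hydrophobic stretches of unfolded proteins and release them in cycles of ATP hydrolysis. J-domain proteins such as DNAJB1 bring clients and trigger hydrolysis, and nucleotide exchange factors such as HSPH1 and BAG3 reset the cycle. When unfolded protein builds up, the transcription factor HSF1 forms trimers, binds inverted repeats of the unit GAA called heat shock elements, and induces HSPA1A, HSPA1B and several co-chaperones. HSPA8 is the constitutive HSP70 of the same compartment. Cancer cells often keep this system active.

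The blocked microRNA is shown first, since its seed (bases 2 to 8, in capitals) is the part that pairs with target messages. Sequences are from RefSeq, GRCh38.p14, and the mature microRNA lies at chr9:70810031-70810052 on the minus strand.
hsa-miR-204-5p: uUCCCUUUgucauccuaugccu

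Promoter windows, from 250 bases before to 50 after a start annotated in RefSeq, were examined for 9 of the 10 genes. The promoter of HSF1 was not analysed here. There were 12 windows in all, since DNAJB1 had 3 and DNAJB4 had 2. A heat shock element pair was searched as GAANNTTC or TTCNNGAA, each of which reads the same on both strands. At least 1 match was present in 7 of 9 genes, HSPA1A, HSPA1B, HSPA1L, HSPA8, DNAJB1, DNAJB4 and HSPB1, against 16.2% of all 27305 genes and 13.5% of all 35116 windows. HSPH1 and BAG3 had no exact match in these windows. A run of 3 alternating units was found for HSPA8 alone among the members, against 0.608% of all genes. HSPA8 held it at 2 places, from -230 to -218 and from -55 to -43 relative to the start.

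The windows of HSPA1A, DNAJB1 and DNAJB4, whose measured levels differed most, are printed with those of HSPA1B, the close copy, and HSPB1, which held a match without a higher level. For DNAJB1 and DNAJB4 the start with the most matches was taken. Capitals mark the heat shock element pairs, and each run reads along the gene's own strand. They lie at chr6:31815293-31815592 (plus) for HSPA1A, chr6:31827488-31827787 (plus) for HSPA1B, chr19:14518348-14518647 (minus) for DNAJB1, chr1:78004689-78004988 (plus) for DNAJB4 and chr7:76302423-76302722 (plus) for HSPB1.
HSPA1A: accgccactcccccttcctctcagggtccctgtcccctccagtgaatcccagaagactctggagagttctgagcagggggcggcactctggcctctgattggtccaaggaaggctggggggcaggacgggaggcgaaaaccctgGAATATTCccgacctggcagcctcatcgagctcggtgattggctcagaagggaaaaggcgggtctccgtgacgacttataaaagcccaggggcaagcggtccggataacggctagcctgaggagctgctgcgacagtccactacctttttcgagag
HSPA1B: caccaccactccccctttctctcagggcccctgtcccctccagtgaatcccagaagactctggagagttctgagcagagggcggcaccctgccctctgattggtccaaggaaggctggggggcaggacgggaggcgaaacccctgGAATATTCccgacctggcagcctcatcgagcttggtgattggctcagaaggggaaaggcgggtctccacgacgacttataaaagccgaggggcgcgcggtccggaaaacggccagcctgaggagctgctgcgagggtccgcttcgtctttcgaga
DNAJB1: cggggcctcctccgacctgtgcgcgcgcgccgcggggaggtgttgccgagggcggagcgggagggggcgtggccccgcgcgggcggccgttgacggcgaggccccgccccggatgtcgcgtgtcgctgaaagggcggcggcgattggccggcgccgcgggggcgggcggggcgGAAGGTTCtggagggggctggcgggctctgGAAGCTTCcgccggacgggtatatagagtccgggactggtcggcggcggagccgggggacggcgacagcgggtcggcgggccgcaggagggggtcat
DNAJB4: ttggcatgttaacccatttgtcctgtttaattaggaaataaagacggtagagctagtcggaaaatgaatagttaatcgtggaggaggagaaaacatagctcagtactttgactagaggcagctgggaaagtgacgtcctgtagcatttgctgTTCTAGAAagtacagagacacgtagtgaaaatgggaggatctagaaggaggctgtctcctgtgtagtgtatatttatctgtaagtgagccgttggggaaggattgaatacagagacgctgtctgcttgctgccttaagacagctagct
HSPB1: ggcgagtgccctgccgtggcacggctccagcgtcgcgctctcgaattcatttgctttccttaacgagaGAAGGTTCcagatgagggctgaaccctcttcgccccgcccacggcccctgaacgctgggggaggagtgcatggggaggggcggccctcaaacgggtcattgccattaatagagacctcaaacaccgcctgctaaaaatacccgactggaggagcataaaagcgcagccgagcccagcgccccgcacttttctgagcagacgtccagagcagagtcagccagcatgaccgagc

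The windows of HSPA1A and HSPA1B were identical at 277 of 299 aligned bases (92.6%), and their element pair, GAATATTC, stood at -106 and at -105. HSPA1A and its neighbour HSPA1L, a relative expressed mainly in testis, start in opposite directions with 259 bases between their starts. Their windows shared 241 bases of the same DNA, so both matches are 1 element, and the element pair of HSPA1A lay at -161 to -154 from the start of HSPA1L. In DNAJB1 the pairs lay at -77 and -47 of the second start, in DNAJB4 at -98 of the second start and in HSPB1 at -182.

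**Figure D1:**
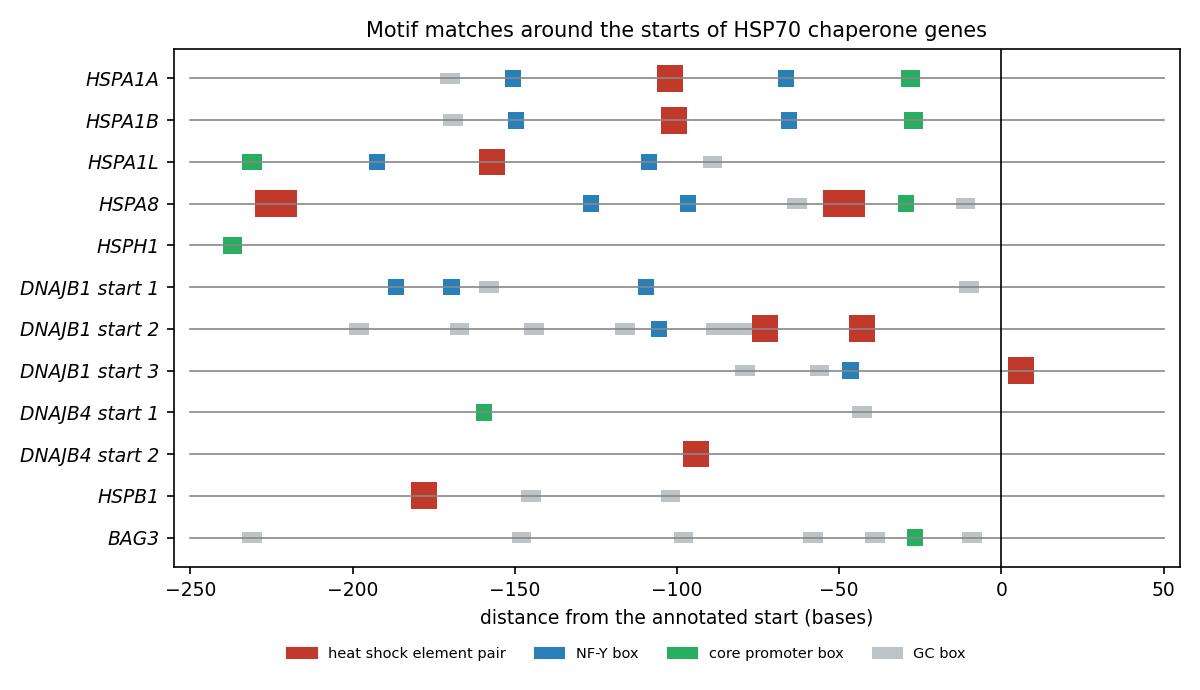
Motif matches in the 12 promoter windows, drawn by distance in bases from each annotated start (vertical line). Red blocks are heat shock element pairs, blue blocks are CCAAT on either strand, green blocks are TATAA on either strand and grey blocks are GGGCGG on either strand; red blocks are missing in HSPH1, BAG3, the first start of DNAJB1 and the first start of DNAJB4.

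The other promoter words were more common in all windows. CCAAT or its complement, bound by NF-Y, occurred in 5 of 9 members against 39.7% of genes. TATAA or its complement, the core of the TATA box, occurred in 7 of 9 against 24.2%, where a match on either strand counted and both forms can overlap. Only those of HSPA1A, HSPA1B, HSPA8 and BAG3 lay between -32 and -25. The matches of HSPH1 (-240 to -235), HSPA1L (-234 to -229) and DNAJB4 (-162 to -158) lay farther upstream. GGGCGG or its complement, the Sp1 word, occurred in 8 of 9 against 48.3%. For all 3 words the matches of HSPA1L lay in the stretch shared with HSPA1A and were counted for both genes. These matches describe letters and not bound sites.

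HSF1, the transcription factor that drives the response, had log2 values of 8.82 and 8.80 in miR204 and 8.85 and 8.76 in control. The groups overlapped, and the difference was 0.005 (SE 0.141, 95% interval -0.33 to 0.34). HSF1 protein is switched on mainly after translation, which an array does not measure. In bulk RNA such as this, fewer cells expressing a gene and less RNA per cell cannot be told apart.

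HSPA1A, the stress-inducible cytosolic HSP70, had log2 values of 8.79 and 8.80 in miR204 and 7.36 and 7.28 in control. Both miR204 arrays lay far above both control arrays, and the 2 miR204 arrays were within 0.01 of each other. The means were 8.80 ± 0.00707 in miR204 and 7.32 ± 0.0566 in control (SD, n = 2 each), which is a log2 difference of 1.475 (SE 0.14, 95% interval 1.14 to 1.81) or 2.78-fold. HSPA1A was the only one of the 8 measured genes past the threshold of an adjusted p of 0.05 in limma (adjusted p = 0.041 over all features). Over all features, 0.0513% were called higher. Since HSPA1A was chosen from these arrays with its difference known, the call describes it and is no independent test. The HSPA1A call in limma ended after quantile normalization (adjusted p = 0.058), against a minimum fold of 1.2 (0.078) and with the replicate number as a block (0.322). The call ended too in the ordinary test without a shared variance prior (0.315). It also ended when any array was left out. Its adjusted p was 0.243 without miR204 array 1, 0.139 without miR204 array 2, 0.713 without control array 1 and 0.834 without control array 2, in fits with fewer degrees of freedom. HSPA1A and HSPA1B are near-identical copies, and probe sequences were not analysed here, so the feature may read both transcripts.

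HSPA1L, which shares the promoter stretch of HSPA1A, had values of 3.19 and 3.45 in miR204 and 3.21 and 3.57 in control. Those values overlapped and lay in the dimmest 25% of features, where low expression and absence look alike. The difference was -0.07 (SE 0.184, 95% interval -0.507 to 0.367).

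DNAJB1, the class B J protein also called HSP40, had values of 8.93 and 9.41 in miR204 and 8.10 and 8.20 in control. Both miR204 arrays were above both controls, but they lay 0.48 apart while the controls lay 0.10 apart. DNAJB1 was 2.03-fold higher by the means, a log2 difference of 1.02 (SE 0.192, 95% interval 0.563 to 1.48) that missed the limma threshold (adjusted p = 0.137). DNAJB4, a related heat-inducible J protein, had values of 6.95 and 7.37 in miR204 and 6.35 and 6.38 in control. Again the groups did not overlap, and the miR204 arrays were 0.42 apart. The DNAJB4 difference was 0.795 (SE 0.18, 95% interval 0.368 to 1.22), or 1.74-fold, also short of the threshold (limma adjusted p = 0.157).

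HSPH1, the HSP110 exchange factor that works with HSP70 in disaggregation, had values of 10.87 and 11.14 in miR204 and 10.80 and 10.88 in control. Its groups overlapped, with a difference of 0.165 (SE 0.158, 95% interval -0.211 to 0.541). BAG3, the exchange factor that routes HSP70 clients to autophagy, had values of 9.28 and 9.34 in miR204 and 9.42 and 9.34 in control. The higher miR204 value equalled the lower control value, and the difference was -0.07 (SE 0.141, 95% interval -0.406 to 0.266).

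HSPB1, the small heat shock protein HSP27 that holds unfolded clients for HSP70, had values of 9.74 and 9.85 in miR204 and 10.02 and 10.19 in control. Here both miR204 arrays were below both controls. The difference was -0.31 (SE 0.149, 95% interval -0.665 to 0.0446) and did not pass in limma (adjusted p = 0.331).

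**Figure D2:**
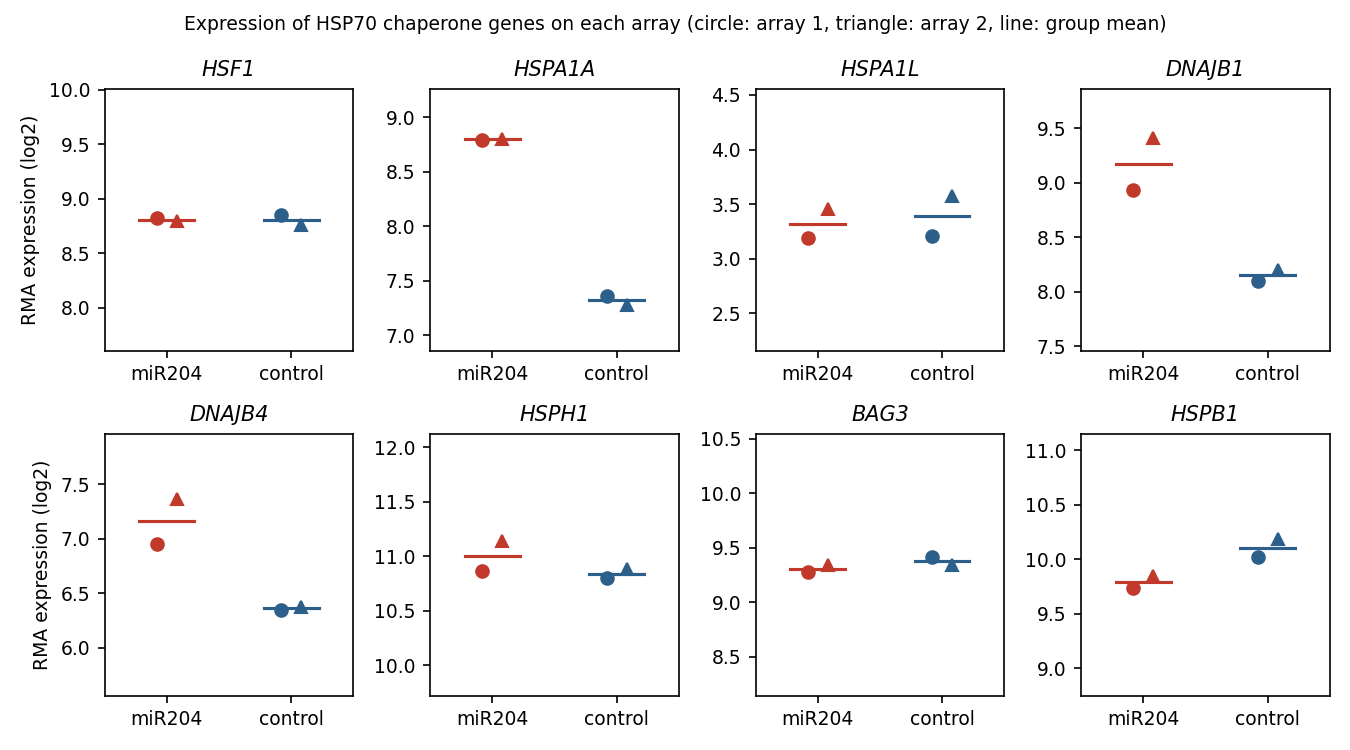
RMA expression (log2) of the 8 measured genes on each array, with miR204 in red and control in blue, array 1 as a circle, array 2 as a triangle and the group mean as a line; every panel spans the same number of log2 units. HSPA1A, DNAJB1 and DNAJB4 are higher on both miR204 arrays than on both control arrays, HSPB1 is lower, and the other 4 overlap or touch.

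Of the 8 measured genes, 3 were higher in miR204 without overlap between the groups and 1 was lower without overlap. Over all features the groups did not overlap for 16.5% in the higher direction and 33.8% in the lower direction. Since the genes were chosen with this contrast known, nothing is read from those shares. The median log2 difference of the 8 was 0.085, against -0.07 over all features. After quantile normalization it was 0.28 for the 8 and -0.0038 over all features. Bright features ran lower in miR204 in the deposited values: over features above the median level the median difference was -0.165, and all members but HSPA1L were in that part of the table.

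The sizes depended on the scaling. After another quantile normalization the difference was 1.66 for HSPA1A, 1.21 for DNAJB1 and 0.92 for DNAJB4. It was 0.34 for HSPH1, 0.22 for HSF1, 0.15 for BAG3, -0.14 for HSPA1L and -0.08 for HSPB1, so BAG3 changed sign and the distance of HSPB1 from 0 shrank. HSPA1A was between 1.435 and 1.675 in all 16 alternative fits and DNAJB1 between 0.78 and 1.26. Only other scalings and left-out arrays could move these values, since the remaining fits kept the same difference. DNAJB1 passed in limma with an intensity trend in the variance prior (adjusted p = 0.0018) and over features above the median level (0.021), as did DNAJB4 (0.014 and 0.030). Many features passed in those fits. With the trend 219 were called higher and 1306 lower, and above the median level 144 were called higher and 867 lower. Without miR204 array 2 the differences were 0.78 for DNAJB1 and 0.585 for DNAJB4, and without miR204 array 1 they were 1.26 and 1.005.

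**Figure D3:**
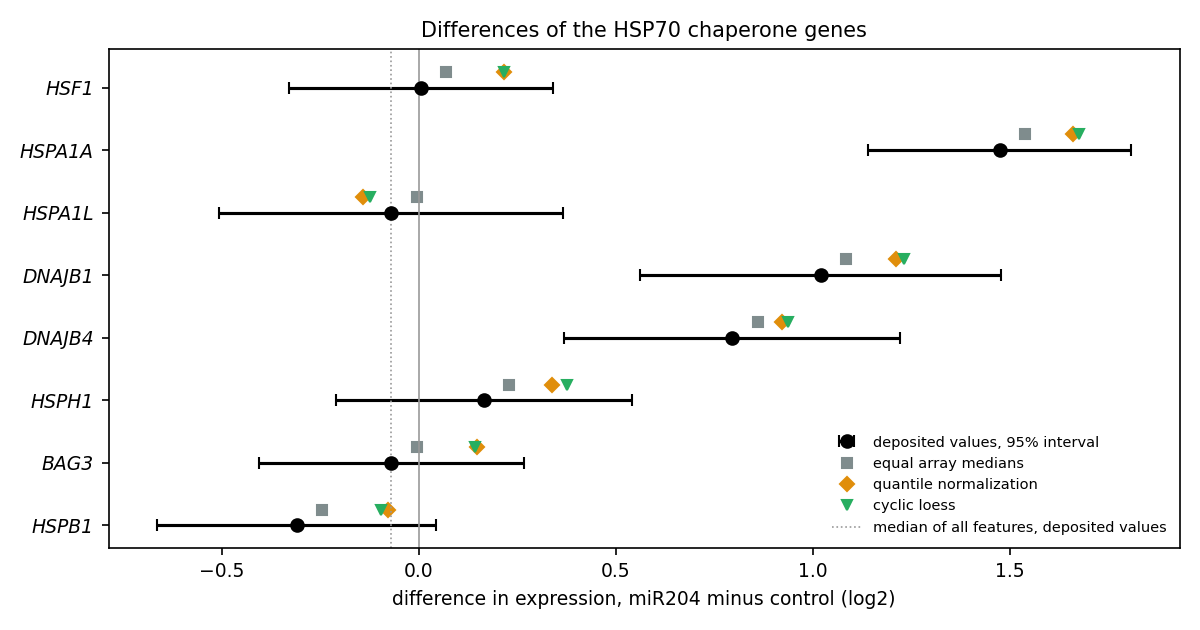
Difference in expression, miR204 minus control (log2), of the 8 measured genes with the 95% interval of the limma fit (black), and the same difference after 3 other scalings (coloured marks). The intervals of HSPA1A, DNAJB1 and DNAJB4 lie above 0 and their differences are higher after each scaling, whereas the intervals of the other 5 include 0.

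Other genes of the chaperone network were described from 8 lists with 108 measured genes of 122 listed. In limma 0 of the 108 passed the threshold in either direction, with 8 higher (7.41%) and 15 lower (13.9%) at an unadjusted p under 0.05. Over all features those shares were 5.11% higher and 12.8% lower, so the list counts lay near the background. Of the 108, 35 were higher (32.4%) and 73 lower, with a median of -0.15. Over all features 40.5% were higher, with a median of -0.07, and features above the median level had a median of -0.165, so the lists leaned the same way as the whole array.

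Among 8 other HSP70 relatives, 4 were higher and 4 lower (median 0.06, but 0.17 after quantile normalization and 0.19 after cyclic loess). HSPA5, the HSP70 of the endoplasmic reticulum, had 11.67 and 11.87 in miR204 and 10.98 and 10.99 in control, a log2 difference of 0.785 (SE 0.149, limma adjusted p = 0.137). HSPA14, a ribosome-associated relative, differed by -0.34 (SE 0.15), HSPA12A by -0.355 (SE 0.182) and HSPA2, best known from male germ cells, by 0.28 (SE 0.147). HSPA6, a strictly heat-inducible HSP70 picked out after its values were seen, had 4.86 and 4.71 in miR204 and 4.54 and 4.63 in control. Its groups did not overlap, but the difference was only 0.20 (limma adjusted p = 0.505).

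Of 12 other exchange factors, 2 were higher and 10 lower (median -0.175, but 0.03 after quantile normalization and 0.02 after cyclic loess). HYOU1, the HSP110-like factor of the endoplasmic reticulum, had 9.95 and 9.99 in miR204 and 9.50 and 9.56 in control, a difference of 0.44 (SE 0.14). BAG1 differed by -0.42 (SE 0.15), BAG5 by -0.405 (SE 0.145) and HSPA4, a cytosolic HSP110, by -0.30 (SE 0.141). BAG1 lay in the dimmest 25% in both groups.

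Of 39 other J proteins, 14 were higher and 25 lower (median -0.135, but -0.014 after quantile normalization and 0.0045 after cyclic loess). DNAJB9, a J protein of the endoplasmic reticulum, had 5.14 and 5.64 in miR204 and 4.61 and 4.75 in control, a difference of 0.71 (SE 0.198). DNAJC30, a mitochondrial J protein, differed by -0.74 (SE 0.169) at low levels, with 3.55 and 3.78 in miR204 and 4.27 and 4.54 in control. DNAJC17 differed by -0.60 (SE 0.183) and DNAJC13, an endosomal J protein, by -0.47 (SE 0.15).

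The HSP90 system, which receives clients from HSP70, had 4 genes higher and 11 lower of 15 (median -0.155). That median was -0.013 after quantile normalization and 0.03 after cyclic loess. TRAP1, the mitochondrial HSP90, differed by -0.485 (SE 0.148), NUDC by -0.42 (SE 0.148), the p23 co-chaperone PTGES3 by -0.40 (SE 0.155) and CHORDC1 by 0.31 (SE 0.143). The chaperonins and prefoldin, which fold actin and tubulin among others, had 1 gene higher and 14 lower of 15 (median -0.295, with -0.09 under quantile normalization and -0.08 under cyclic loess). PFDN1 differed by -0.445 (SE 0.144), CCT4 by -0.42 (SE 0.147), VBP1 by -0.395 (SE 0.144) and CCT7 by -0.38 (SE 0.142).

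Of 7 other small heat shock proteins, 4 were higher and 3 lower (median 0.025, but -0.02 after quantile normalization). CRYAB, alpha B-crystallin, had 3.69 and 3.12 in miR204 and 2.80 and 2.93 in control, all in the dimmest 25%, so its difference of 0.54 (SE 0.211) is uncertain. HSPB6 differed by -0.165 (SE 0.143), HSPB8 by -0.15 (SE 0.17) and HSPB3 by 0.045 (SE 0.159). Of 6 measured HSF relatives and regulators, 2 were higher and 4 lower (median -0.075, but 0.05 after quantile normalization). HSF2BP differed by -0.29 (SE 0.221), IER2 by -0.19 (SE 0.163), HSBP1 by -0.135 (SE 0.139) and IER5 by 0.11 (SE 0.156).

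Of 20 other heat-inducible genes, some of which also stand in the lists above, 10 were higher and 10 lower (median -0.05, but 0.14 after quantile normalization). ZFAND2A, a zinc finger protein induced by arsenite and heat, had 7.48 and 7.20 in miR204 and 6.67 and 6.43 in control, a difference of 0.79 (SE 0.171, limma adjusted p = 0.15). SERPINH1, the collagen chaperone HSP47, had 9.60 and 9.28 in miR204 and 8.95 and 8.86 in control, a difference of 0.535 (SE 0.165, limma adjusted p = 0.201). Neither overlapped between the groups, and neither passed. Of the 20, 5 were higher and 7 lower without overlap, against 16.5% and 33.8% over all features. Among those that were lower, HSPE1 differed by -0.295 (SE 0.152) and HSPD1 by -0.22 (SE 0.139).

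**Figure D4:**
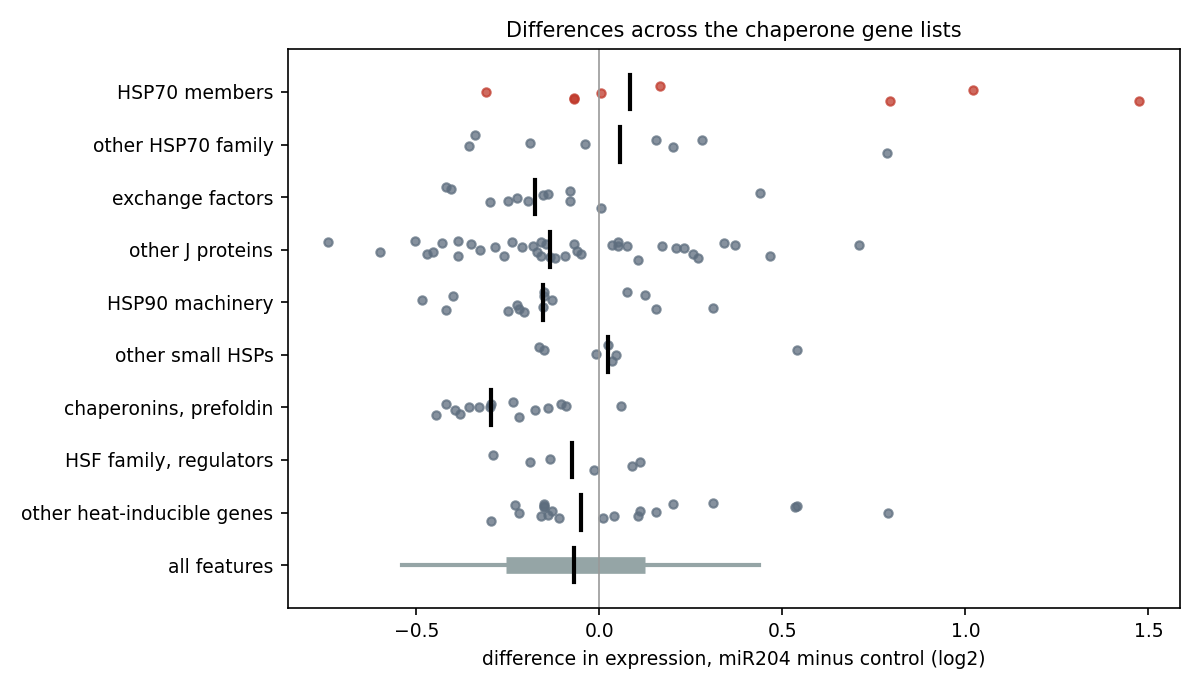
Difference in expression, miR204 minus control (log2), of each measured gene in the chaperone lists (points, with vertical scatter for visibility only and the list median as a black bar). The bottom row gives all features by median, central 50% (thick bar) and central 90% (thin bar). HSPA1A at 1.475 and DNAJB1 at 1.02 are the points farthest to the right, and the chaperonin median is at -0.295.

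The features whose values over the 4 arrays ran most like those of HSPA1A were ranked by the Euclidean distance between values centred on each feature's own mean. The nearest was CXCL8, the chemokine interleukin-8, at a distance of 0.079, with 9.50 and 9.60 in miR204 and 8.06 and 8.03 in control. Next came TC0600007616.hg.1 at 0.103, with 8.86 and 8.85 in miR204 and 7.44 and 7.23 in control; it had no symbol in the annotation and no gene was assigned to it. TC1100013152.hg.1, also unnamed, stood at 0.20. GDF15, a stress-induced cytokine, stood at 0.223, with 8.86 and 8.79 in miR204 and 7.28 and 7.50 in control. SAA1, serum amyloid A, and SLC7A11, the cystine transporter, both stood at 0.246. With 4 arrays in 2 groups, such likeness mostly restates a similar difference between the groups.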

How the data were processed

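Gene expression was measured on 4 Affymetrix Human Clariom S arrays, 2 per group. The deposited values were log2 expression per feature, made by the authors with RMA (background correction, quantile normalization and probe summary) using Transcriptome Analysis Console 4.0, as the submitters' processing notes list; neither its parameters nor a genome build is stated in the labels. Quantile steps can compress differences that run one way, and detection calls were not analysed here.

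By GEO's platform annotation, 17709 features carried 1 symbol, 0 carried several and 3739 carried none. The contrast miR204 minus control was fitted in R 4.3.3 with limma 3.58.1 (lmFit, eBayes, no replicate block, no filter, 2 residual and 4.78 prior degrees of freedom), with Benjamini-Hochberg adjustment over all 21448 features. An exact permutation of 2 against 2 arrays cannot go below p = 0.333. The procedure was run on simulated data as a check of the code, which does not bear on the differences in these arrays. The members, lists and settings were chosen with earlier results of these data known. Named genes were all members, 4 per list by moderated statistic, and the 6 features nearest to HSPA1A. HSPA1A and HSPA1B windows were aligned with Biopython 1.88. Same-numbered arrays were not treated as pairs in the main fit (correlation of deviations 0.0058, which cannot exclude pairing). The number of arrays limits the precision.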

Additional observations from a re-analysis of the deposited data

How the results depend on the processing

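HSPA1A, DNAJB1, DNAJB4 and HSPH1 were higher in miR204 and HSPB1 was lower in all 16 alternative fits. Fits that changed only the variance, the block, the test or the set of features kept the same differences by construction. Only other scalings and left-out arrays could change a sign. HSF1, BAG3 and HSPA1L, with small differences, took both signs over their fits. The 11 features past the threshold became 1525 with an intensity trend, 559 with that trend after quantile normalization (a setting added after seeing the data), 1011 over features above the median level, 38 over those above the 25th percentile and 1 with treat at 1.2-fold. They became 0 after quantile normalization and in the ordinary test, where 2932 and 2702 features had an unadjusted p under 0.05, and 0 to 0 when 1 array was left out, with 924 to 5878 features at that level. Members past the threshold were 1, but 3 with the trend, 3 over the brighter features (above the median level), 4 with trend and quantile normalization together, and 0 after quantile normalization, with treat, in the ordinary test and without any 1 array (0 to 0), with 4, 3, 1 and 3 members at an unadjusted p under 0.05. The other chaperone genes past it were 0, but 13 with the trend, 3 over the brighter features and 6 with trend and quantile normalization. Member genes with a heat shock element pair were 7, against 1 for 3 alternating units.

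With the replicate number as a block 0 features passed (3220 at an unadjusted p under 0.05), 0 members passed (3 at that level), and HSPA1A had an adjusted p of 0.32. The labels do not say whether same-numbered arrays belong together. The correlation of their deviations (0.0058) rests on 1 gap per group and cannot decide it. Fits with 1 array left out assume that the lone array varies like the other group and have fewer degrees of freedom. Averaging features per symbol changed nothing, since each member had 1. Signal over background was not analysed here, which limits HSPA1L and CRYAB.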

Other observations

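On miR204 array 2, 7 of the 8 measured members were higher than on miR204 array 1, with a median gap of 0.185 log2 units, against 52.3% of all features and a median gap of 0.02. The gaps were 0.48 for DNAJB1, 0.42 for DNAJB4 and 0.27 for HSPH1, but 0.01 for HSPA1A. Of all 108 other chaperone genes, 63 (58.3%) were higher on miR204 array 2, with a median gap of 0.055, near the share over all features. The lists varied: chaperonins and prefoldin had 12 of 15 (median gap 0.12), exchange factors 9 of 12 (0.05), the HSP90 machinery 9 of 15 (0.13) and heat-inducible genes 12 of 20 (0.07). J proteins had 21 of 39 (0.03), other HSP70 relatives 4 of 8 (0.015), other small heat shock proteins 3 of 7 (-0.16) and the HSF family 2 of 6 (-0.065). Control arrays were unequal too. On control array 2, 5 of 8 members were higher than on control array 1, with a median gap of 0.055. Over all features 12379 of 21448 were higher on control array 2, with a median gap of 0.04. Of all 108 other chaperone genes, 70 were (median gap 0.045). The list with the largest share was the exchange factors, with 11 of 12 (0.105). No test was made of these gaps, since each group has 2 arrays.

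Over all measured genes with a promoter window, the 2123 with a heat shock element pair had a median log2 difference of -0.075, against -0.095 for the 12127 without one. The 80 genes with 3 alternating units had a median of 0.02 and 52.5% were higher, against -0.09 and 37.0% for the 14170 without. No test was made of these medians. Measured members with a window are among the genes counted, but none is among the 80 with 3 alternating units, since HSPA8 had no feature.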
